A study of Homo sapiens with 4 samples.

Results

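Expression of 10 genes that act in or report on negative feedback of mitogen-activated protein kinase (MAPK) signalling was examined after knockdown of *SOX2* in LN229 cells, an established human glioblastoma (GBM) line. The genes were the dual-specificity phosphatases *DUSP1*, *DUSP4*, *DUSP5* and *DUSP6*, the Sprouty genes *SPRY1*, *SPRY2* and *SPRY4*, the Sprouty-related genes *SPRED1* and *SPRED2*, and the ETS transcription factor gene *ETV5*. Every array probe whose gene symbol equalled one of these names was taken, which gave 10 of the 20481 gene symbols and 14 of the 33096 gene probes on each array. *DUSP4*, *SPRY1*, *SPRY4* and *ETV5* had 2 probes each and the other genes 1 probe each.

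Growth factor receptors act through RAS, RAF and MEK on the kinase ERK, and ERK switches on genes whose products damp the same pathway. DUSP proteins remove phosphate from both the threonine and the tyrosine of active MAPKs. Sprouty and SPRED proteins act further up, between the receptors and RAF, and SPRED proteins work together with neurofibromin, the RAS brake that is lost in part of human gliomas. Transcripts of *DUSP6*, *SPRY4* and *ETV5* are commonly read as a gauge of ERK output.

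The series held 4 arrays, 2 of LN229 cells transfected with siRNA against *SOX2* (SOX2 knockdown) and 2 of LN229 cells given a control siRNA without a target (mock knockdown). All cells were grown in DMEM, with fetal bovine serum per the study's methods, and carried no other named alteration. The replicates are described there as separate transfections, with cells harvested for the arrays at 1 time, days after transfection. The results therefore cover 1 cell line under transient knockdown at 1 time, and earlier responses were not read. The methods name a pair of *SOX2* siRNAs without saying which was used for the arrays. Total RNA was read on the Human Genome Survey array of Applied Biosystems, a platform of 1-colour arrays of oligonucleotide probes read by chemiluminescence, and since RNA was taken from whole cultures, fewer expressing cells and less RNA per cell cannot be told apart.

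Each signal below was divided by its array's 75th percentile, and the signal-to-noise ratio (S/N) of the scanner files marks a probe as measured where it is over 3. Between 63.8% and 69.4% of probes passed S/N of 3 on an array. A field of the labels names a colon cancer line, SW620, in place of LN229, so line markers were read. Of 9 markers of mesenchymal or neural glioma lines, 6 had S/N over 3 on all 4 arrays (among them *VIM*, *CD44* and *NES*), *FN1* on 2 arrays, and *CHI3L1* and *COL1A2* on 0. Of 11 probes for 10 colon markers, 1 of the *VIL1* probes had S/N over 3 on all 4 arrays, while *CDX1*, *CDX2* and *LGALS4* had it on 2 arrays each, *EPCAM*, *CEACAM5* and *GPA33* on 1 each, and *KRT20*, *CDH1*, *CDH17* and the other *VIL1* probe on none. The median scaled signal over the glioma marker probes was 0.330 to 0.409 by array. Over the colon marker probes it was 0.0248 to 0.0291. The *SOX2* probe (hCG2021649) gave 0.467 and 0.701 on the mock arrays and 0.209 and 0.149 after knockdown, lower as labelled, with a log2 change of -1.69 (SE 0.28) and an adjusted p of 0.117 (limma, Benjamini-Hochberg over all probes compared, two-sided). Its S/N on the knockdown arrays, 3.17 and 3.06, was barely over 3, so the size of the fall is uncertain. The log2 change was -1.10 with normexp background correction. The *SOX2* probe passed an adjusted p of 0.05 with median scaling (4.63e-07), without further scaling (8.15e-07) and with the series table (6.63e-07). In these runs the adjusted p followed the size of the change and does not measure the probe's own replicate spread. With the replicate number as a block, limma's adjusted p for *SOX2* was 0.303.

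All 14 probes were measured on all 4 arrays, with S/N from 5.3 to 124.64, so the filter on low signals removed none of them. The signals of *DUSP1*, of *DUSP6*, of both *SPRY4* probes and of the brighter *SPRY1* probe were lower on both SOX2 knockdown arrays than on both mock arrays. Those of both *DUSP4* probes and of *DUSP5* were higher on both. The arrays of the 2 groups overlapped for the dimmer *SPRY1* probe and for *SPRY2*, *SPRED1*, *SPRED2* and both *ETV5* probes. The plot of the signals by array shows these patterns.

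**Figure D1:**
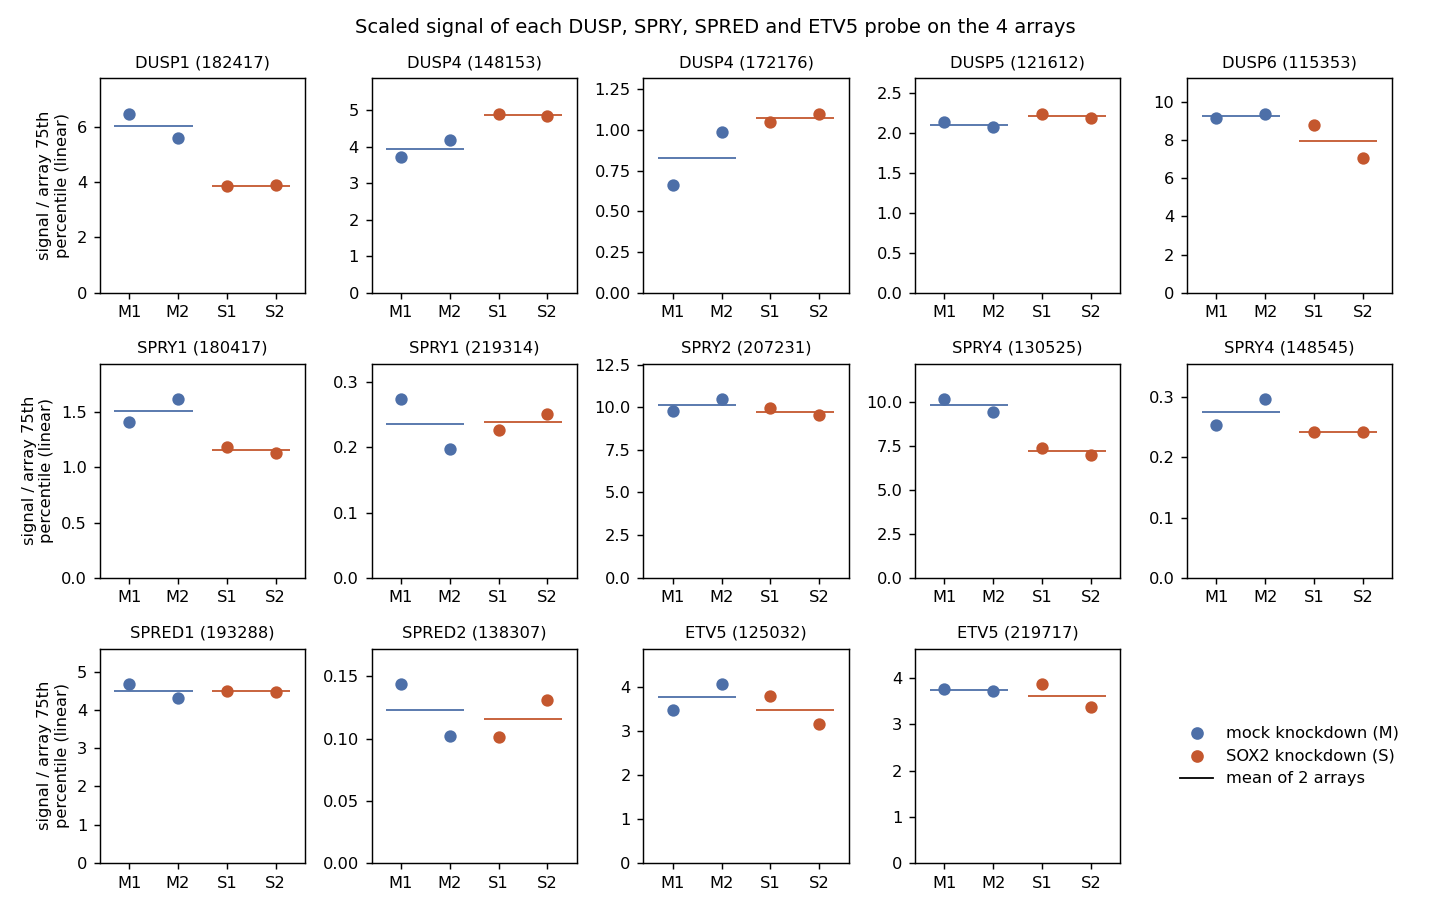
Scaled signal (linear, divided by the 75th percentile of the array) of each of the 14 probes, named by gene and array probe number, on the mock arrays (M1, M2) and the SOX2 knockdown arrays (S1, S2). Points are arrays and lines the mean of 2 arrays. *DUSP1* lay at 6.46 and 5.60 on the mock arrays and at 3.86 and 3.88 after knockdown.

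With the 2-fold cutoff of replicate means that the study's methods use, 0 of the 14 probes were called. Among the 21256 probes measured on both arrays of 1 group or of both, 334 (1.57%) were over 2-fold higher and 221 (1.04%) over 2-fold lower after SOX2 knockdown. Of those past the cutoff 60.2% were higher. This share was 54.7% with median scaling, 56.5% without further scaling, 57.2% with the series table and 60.1% with quantile normalization. It was 77.2% with normexp background correction (179 higher, 53 lower). In limma with Benjamini-Hochberg adjustment over the same probes, 0 of the 14 passed an adjusted p of 0.05, as did 0 of all 21256 (smallest adjusted p 0.0582). At an unadjusted limma p under 0.05, 3 of the 14 probes (21.4%) were lower, where 9.16% of all probes were. These were the *DUSP1* probe, the brighter *SPRY4* probe and the brighter *SPRY1* probe. At the same p 0 of the 14 were higher, where 7.90% of all probes were.

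The groups did not overlap for 8 of the 14 probes (57.1%), 5 lower and 3 higher, and for 47.0% of all probes (25.8% lower, 21.2% higher). A single probe makes up 7.14% of the 14, and nothing particular to these genes is read from the difference. The median log2 change of the 14 probes was -0.06 and that of all probes -0.0012. The lowest was -0.64 and the highest 0.40, while all probes ranged from -2.17 to 4.17.

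**Figure D2:**
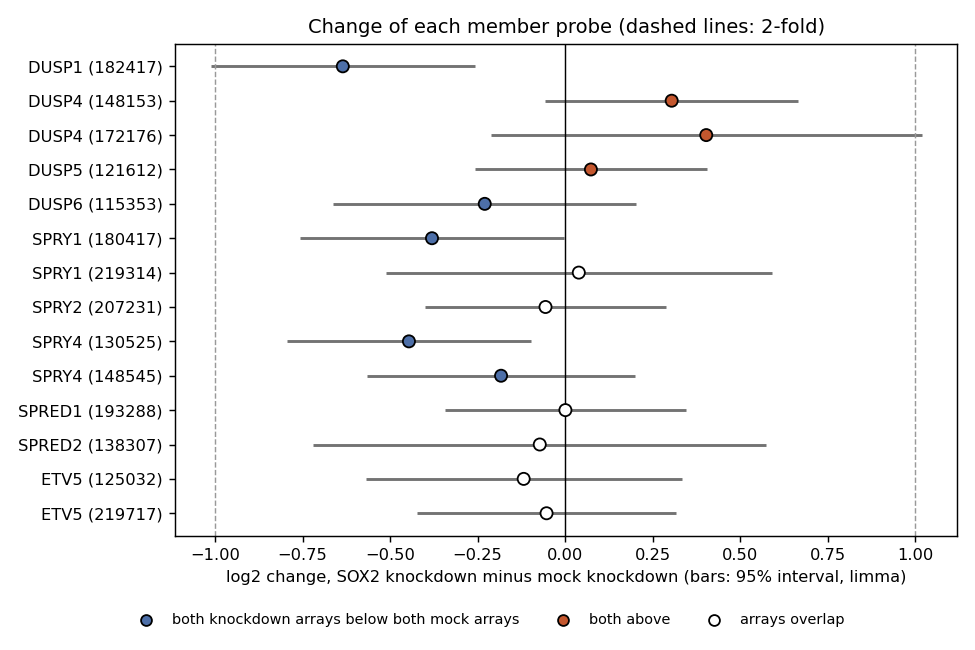
Log2 change of each probe, SOX2 knockdown minus mock knockdown, with its 95% interval from limma. Filled points mark probes whose arrays did not overlap between the groups, 5 lower and 3 higher, and the dashed lines mark 2-fold, which none of the estimates reached.

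**Figure D3:**
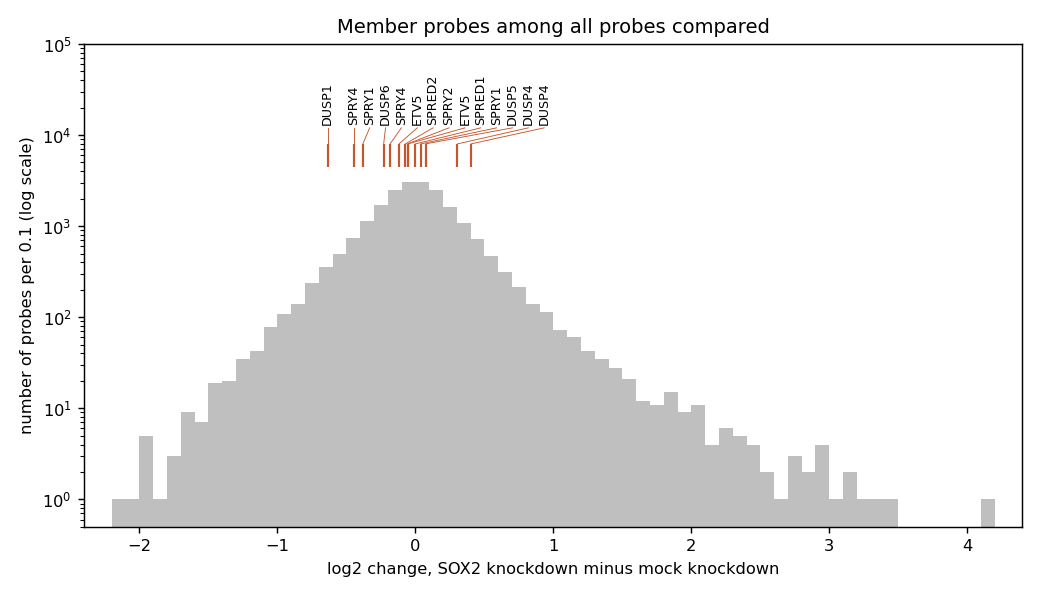
Histogram of the log2 change of all 21256 probes compared (number of probes per 0.1, log scale), with red ticks at the 14 member probes, which lay between -0.64 and 0.40.

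*DUSP1* encodes MKP-1, a nuclear phosphatase induced within minutes by growth factors and stress, which acts on p38 and JNK as well as on ERK. Its probe (hCG41245.2) read 6.46 and 5.60 in the mock replicates, against 3.86 and 3.88 with *SOX2* knocked down. The knockdown arrays were nearly equal and both lay below the lower mock array. The means were 6.03 ± 0.614 and 3.87 ± 0.0178 (SD, n = 2 arrays each), a 1.56-fold lower signal after knockdown. The log2 change was -0.64 (SE 0.14, 95% interval -1.01 to -0.26), larger than the log2 difference of 0.208 between the mock arrays. Its unadjusted p was 0.00852 and its adjusted p 0.156 (limma, Benjamini-Hochberg), so the difference did not pass the correction. It was the lowest of the 14 changes, with 4.26% of all probes lower, and *DUSP1* was the only member past 1.5-fold, as were 5.19% of all probes in that direction.

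The window of 250 bases before the start of *DUSP1* is shown with those of *DUSP6* and *SPRY1*, the members with lower signals for which RefSeq's promoter table (GRCh38.p14) gives a window at the outermost start of the gene. The table matched 7 of the 10 genes with 11 windows. Capitals mark matches to motifs searched on both strands: the CRE core TGACGT of CREB and ATF factors, the ETS core CCGGAAG, the SOX core CATTGT, the AP-1 site TGANTCA and the amino acid response element core TGATGNAA.
*DUSP1*, chr5:172771196-172771445, minus strand: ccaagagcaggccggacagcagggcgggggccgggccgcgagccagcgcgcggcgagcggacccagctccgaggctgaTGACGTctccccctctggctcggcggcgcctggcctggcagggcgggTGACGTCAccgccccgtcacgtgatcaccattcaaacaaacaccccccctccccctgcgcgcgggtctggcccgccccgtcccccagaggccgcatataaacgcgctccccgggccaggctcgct
*DUSP6*, chr12:89352502-89352751, minus strand: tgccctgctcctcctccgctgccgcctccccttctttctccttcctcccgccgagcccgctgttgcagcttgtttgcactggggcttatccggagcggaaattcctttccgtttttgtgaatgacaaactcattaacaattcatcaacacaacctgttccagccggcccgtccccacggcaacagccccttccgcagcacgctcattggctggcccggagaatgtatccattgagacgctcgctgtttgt
*SPRY1*, chr4:123396545-123396794, plus strand: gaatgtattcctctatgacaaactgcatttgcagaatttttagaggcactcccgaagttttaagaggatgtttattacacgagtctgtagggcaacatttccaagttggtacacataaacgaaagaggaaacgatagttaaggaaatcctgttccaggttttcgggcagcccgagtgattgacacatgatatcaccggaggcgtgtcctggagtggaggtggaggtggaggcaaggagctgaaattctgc

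The *DUSP1* window held 3 matches to TGACGT, 1 alone at 172 to 167 bases before the start and 2 on opposite strands that overlap at 125 to 118 bases before it. This hexamer was found in 7.10% of all 35116 windows of the table. No motif of the set was found in the *DUSP6* window or in the *SPRY1* window shown. A further *SPRY1* window, at an inner start, held CCGGAAG, found in 8.52% of all windows, and an inner *SPRED2* window held TGATGNAA, found in 3.14%. CATTGT and TGANTCA, found in 9.29% and 6.57% of all windows, were in 0 of the 11. These are matches of letters, and binding was not tested here. The study mapped SOX2 binding in LN229 cells by ChIP-seq and reported another consensus, wwTGnwTw, which was not searched for. Its binding regions were not compared with the members, so the lack of CATTGT says nothing on SOX2 binding.

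*DUSP4* encodes MKP-2, a nuclear phosphatase close in sequence to MKP-1 that acts on ERK and JNK. Its brighter probe (148153, hCG1639778.4) read 3.72 and 4.18 in mock knockdown and 4.89 and 4.84 after knockdown of *SOX2*. Its dimmer probe (172176, same gene ID) read 0.663 and 0.990, then 1.05 and 1.10. Both knockdown arrays were above both mock arrays on either probe, opposite to *DUSP1*. The ratios of the means were 1.23 and 1.30, with log2 changes of 0.30 (SE 0.14, 95% interval -0.06 to 0.67) and 0.40 (SE 0.23, 95% interval -0.21 to 1.02). The adjusted p were 0.364 and 0.478 (limma, Benjamini-Hochberg). On the dimmer probe the mock arrays differed from each other by 0.577 on the log2 scale, more than the change itself.

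*DUSP5* encodes a nuclear phosphatase selective for ERK. Its probe (hCG1811162.1) read 2.14 and 2.07 in the mock replicates, against 2.24 and 2.19 with *SOX2* knocked down. The groups did not overlap, but the gap was small, with a ratio of 1.05. The log2 change was 0.07 (SE 0.12, 95% interval -0.26 to 0.41) and the adjusted p 0.866 (limma, Benjamini-Hochberg).

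*DUSP6* encodes MKP-3, the cytoplasmic phosphatase selective for ERK. Its probe (hCG26604.2) read 9.14 and 9.36 in mock knockdown and 8.79 and 7.08 after knockdown of *SOX2*. The knockdown arrays were both lower, 1 of them by little. The means were 9.25 ± 0.160 and 7.93 ± 1.21 (SD, n = 2 arrays each), 1.17-fold lower after knockdown. The log2 change of -0.23 (SE 0.16, 95% interval -0.66 to 0.20) was smaller than the log2 difference of 0.313 between the knockdown arrays, and the adjusted p 0.579 (limma, Benjamini-Hochberg). Without SOX2 knockdown replicate 2 it was -0.073, and without replicate 1 of that group -0.39.

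Among the Sprouty genes, whose products block RAS and RAF activation by receptor tyrosine kinases, *SPRY4* had the lowest value. Its brighter probe (130525, hCG1820982.1) read 10.1 and 9.43 in the mock replicates, against 7.37 and 6.98 with *SOX2* knocked down. Both knockdown arrays lay well below both mock arrays, 1.36-fold by the means (9.79 ± 0.497 against 7.18 ± 0.275, SD, n = 2). The log2 change was -0.45 (SE 0.13, 95% interval -0.79 to -0.10), with an unadjusted p of 0.0226 and an adjusted p of 0.215 (limma, Benjamini-Hochberg). The other probe with this symbol (148545) has a gene ID of its own, hCG2018834, and read 0.254 and 0.297, then 0.242 and 0.242. It was lower on both knockdown arrays too, with a log2 change of -0.18 (SE 0.14, 95% interval -0.57 to 0.20, adjusted p 0.629, limma, Benjamini-Hochberg).

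For *SPRY1* the probes gave different answers. The brighter one (180417, hCG1778453.2) read 1.41 and 1.61 in mock knockdown and 1.19 and 1.13 after knockdown of *SOX2*. Both knockdown arrays were lower, 1.30-fold by the means, and the log2 change was -0.38 (SE 0.14, 95% interval -0.76 to -0.0024), with an unadjusted p of 0.0491 and an adjusted p of 0.291 (limma, Benjamini-Hochberg). The dimmer one (219314, same gene ID) read 0.274 and 0.198, then 0.227 and 0.252. The knockdown arrays lay between the mock arrays, and the log2 change was 0.039 (SE 0.21, 95% interval -0.51 to 0.59, adjusted p 0.968, limma, Benjamini-Hochberg). The average of both by gene ID was -0.32 on the log2 scale.

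*SPRY2*, the best studied Sprouty gene in receptor signalling, read 9.78 and 10.5 in the mock replicates, against 9.94 and 9.52 with *SOX2* knocked down (hCG32237.3). The arrays overlapped and the ratio of the means was 0.961. The log2 change of -0.06 (SE 0.13, adjusted p 0.907, limma, Benjamini-Hochberg) had a 95% interval from -0.40 to 0.29, which leaves out a 2-fold difference in either direction.

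*SPRED1*, the gene altered in Legius syndrome, read 4.67 and 4.30 in mock knockdown and 4.49 and 4.47 after knockdown of *SOX2* (hCG37404.3). The knockdown arrays lay between the mock arrays. The log2 change was 0.00067 (SE 0.13, 95% interval -0.34 to 0.34, adjusted p 0.999, limma, Benjamini-Hochberg). Its relative *SPRED2* (hCG1986444.1) read 0.144 and 0.102, then 0.101 and 0.131. The arrays overlapped and the replicates of either group differed by more than the groups, with a log2 change of -0.07 (SE 0.24, 95% interval -0.72 to 0.58, adjusted p 0.942, limma, Benjamini-Hochberg).

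*ETV5* encodes an ETS factor of the PEA3 group, which is transcribed in response to ERK and in turn drives ERK-dependent transcription. Its probe 125032 (hCG2021087) read 3.49 and 4.07 in the mock replicates, against 3.81 and 3.16 with *SOX2* knocked down. Its probe 219717 (same gene ID) read 3.77 and 3.73, then 3.86 and 3.38. The groups overlapped on both probes. The log2 changes were -0.12 (SE 0.17, 95% interval -0.57 to 0.33) and -0.05 (SE 0.14, 95% interval -0.42 to 0.32), and limma's adjusted p were 0.830 and 0.922.

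The other genes of the pathway were read from lists (the plot of changes by list). None of their probes passed an adjusted p of 0.05 as processed here (limma, Benjamini-Hochberg), though some of those named below did under other scalings. With median scaling, no further scaling or the series table, the adjusted p followed the size of the change, not a probe's own replicate spread. The lists are therefore given by counts, beside all probes with a median of -0.0012.

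The other MAPK phosphatase genes (*DUSP2*, *DUSP7*, *DUSP8*, *DUSP9*, *DUSP10*, *DUSP16*) gave 5 probes compared of 7, with 0 past 2-fold and a median log2 change of 0.16. *DUSP8*, whose product acts on JNK and p38, had the highest value, 0.43 (SE 0.20), and *DUSP2* the lowest, -0.25 (SE 0.24). *DUSP7*, which encodes a cytoplasmic ERK phosphatase like *DUSP6*, read 2.60 and 2.51 on the mock arrays and 3.66 and 3.17 after knockdown, with a log2 change of 0.41 (SE 0.14, adjusted p 0.262, limma, Benjamini-Hochberg), and is named after its values were seen. The atypical dual-specificity phosphatases gave 12 probes compared of 16, 0 past 2-fold and a median of -0.0037, from *DUSP23* at -0.45 (SE 0.14) to *DUSP12* at 0.30 (SE 0.24). The remaining family genes *SPRY3* and *SPRED3* differed more between replicates than between groups, with log2 changes of 0.23 (SE 0.66) and -0.038 (SE 0.27) and overlapping arrays.

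Of 21 probes for 19 other genes induced by ERK, 20 were compared, and their median was -0.0064. An unadjusted p under 0.05 was reached by 5 higher and 3 lower probes (7.90% and 9.16% of all probes). *EREG*, which encodes the EGF receptor ligand epiregulin, was the only probe of the list past the 2-fold cutoff, but it was measured on 1 of the 2 mock arrays and entered the comparison only through the knockdown group. It read 0.0429 and 0.0174 in mock knockdown, the lower with S/N of 1.38, and 0.0668 and 0.0721 with *SOX2* knocked down. The ratio of its means, 2.30, was 1.10 with normexp, 1.39 with a floor of 0.05, 1.62 without mock replicate 2 and 3.98 without mock replicate 1. Limma's adjusted p for *EREG* was 0.257, and 0.000474 to 0.000563 with median scaling, no further scaling or the series table. The lower values went with the size of the change and do not measure the gap between the mock arrays. The other 7 probes at that p are named after their values were seen. Those higher were *EPHA4* (0.93), *PHLDA1* (0.81), *MYC* (0.72) and *FOSL1* (0.39), and those lower *ETV1* (-0.61), *FOS* (-0.41) and *PLAUR* (-0.40), all log2 changes. Of these *EPHA4* passed an adjusted p of 0.05 with median scaling (0.0470) and with the series table (0.0456). *ETV1* is of the same PEA3 group as *ETV5* and read 1.62 and 1.75 on the mock arrays against 1.13 and 1.07 after knockdown.

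The core of the cascade, from adaptors to ERK and its substrate kinases, gave 25 probes compared of 34 and a median log2 change of 0.018. *GAB1*, an adaptor downstream of receptor tyrosine kinases, had the only probe past 2-fold (231715, hCG2026638), at a ratio of 2.002. It read 0.206 and 0.172 in mock knockdown and 0.376 and 0.381 after knockdown of *SOX2*, with a log2 change of 1.01 (SE 0.15, adjusted p 0.106, limma, Benjamini-Hochberg). A dimmer *GAB1* probe (158426, hCG38880.3) had S/N over 3 on 2 arrays and was not compared. That probe read 0.0429 and 0.0392 in mock knockdown and 0.0312 and 0.0302 after knockdown, the opposite direction. The 2-fold call of *GAB1* was lost with median scaling (1.96), quantile normalization (1.99), no further scaling (1.98), the series table (1.98) and normexp (1.73), and without mock replicate 2 (1.83) or SOX2 knockdown replicate 2 (1.99). Limma's adjusted p for probe 231715 was 0.0238 to 0.0262 with the series table, median scaling or no further scaling. In the cascade list 3 higher and 1 lower probes reached an unadjusted limma p under 0.05 (7.90% and 9.16% of all probes). Beside this *GAB1* probe they were *RPS6KA1* (probe 137981, log2 change 0.73) and *NRAS* (0.59), and the lower one *RRAS* (-0.51), named after their values were seen. Of the other brakes on RAS-ERK signalling, 18 probes were compared of 22, with a median of 0.09. The probes past 2-fold were both of *RASAL2*, which encodes a RAS GTPase-activating protein. The brighter *RASAL2* probe read 0.693 and 0.923 on the mock arrays and 1.79 and 1.79 after knockdown, and the dimmer 0.294 and 0.301, then 0.704 and 0.564. Their log2 changes were 1.16 (SE 0.19) and 1.08 (SE 0.16), and limma's adjusted p were 0.111 and 0.106. With median scaling, no further scaling or the series table the adjusted p of *RASAL2* were 0.00485 to 0.00546 for the brighter probe, which also passed with a variance trend (0.0444), and 0.0112 to 0.0123 for the dimmer. The brighter probe was 1.94-fold higher without mock replicate 1, and the dimmer 1.79-fold with normexp and 1.90-fold without SOX2 knockdown replicate 1.

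The kinases of the JNK and p38 branches, on which *DUSP1* also acts, gave 14 probes compared of 19, 0 past 2-fold and a median log2 change of 0.0010. *MAPK9*, which encodes JNK2, had the lowest value, -0.40 (SE 0.16), and a probe annotated to several genes, *MAPK12* among them, the highest, 0.69 (SE 0.58). On that probe mock replicate 1 read 0.191 and the other 3 arrays 0.545 to 0.610.

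**Figure D4:**
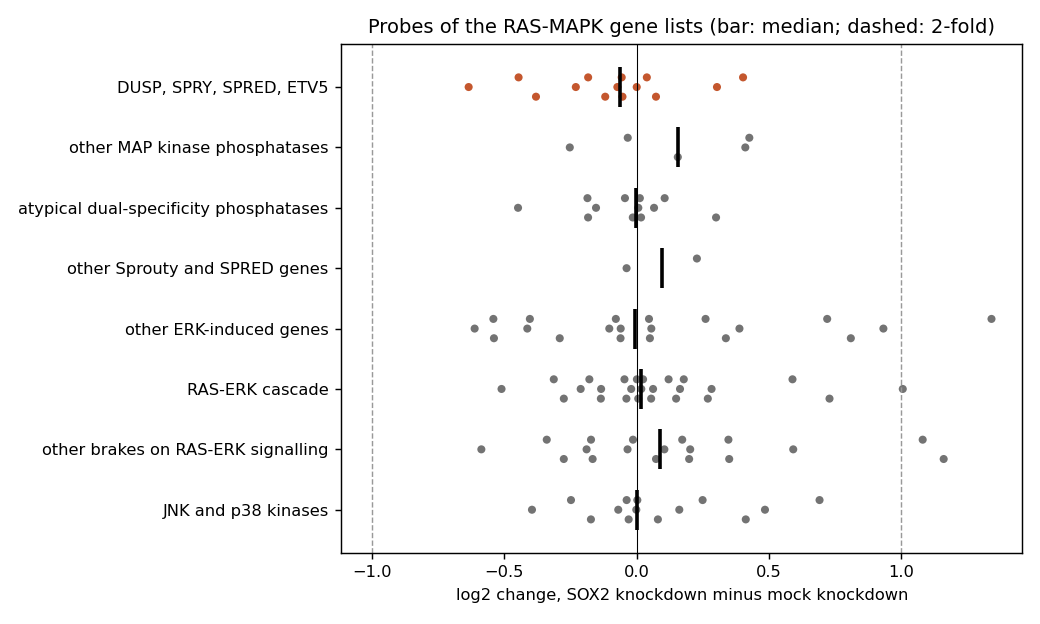
Log2 change, SOX2 knockdown minus mock knockdown, of every probe compared in the member set (red) and in 7 other lists of the pathway (grey), with the median of each list as a bar and dashed lines at 2-fold. The probes past 2-fold are those of *EREG*, *GAB1* and *RASAL2*.

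The probes whose pattern over the 4 arrays was nearest to that of *DUSP1*, by the Euclidean distance of mean-centred log2 signals among 16452 probes with a symbol and S/N over 3 on all 4 arrays, were those of *SEH1L* (distance 0.0404), *IXL* (0.0455) and *PIGF* (0.0471). Their log2 changes were -0.63, -0.64 and -0.63. With 4 arrays such a likeness is a description only.

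Of 17 alternative ways of processing the data, 10 could move the estimated changes of the members, among them leaving out each array, and the other 7 left them as they were and altered the test only. Over these, *DUSP1* stayed between -0.74 and -0.50 on the log2 scale, the brighter *SPRY4* probe between -0.50 and -0.37 and the brighter *SPRY1* probe between -0.48 and -0.28. *DUSP6* ranged from -0.39 to -0.073, the brighter *DUSP4* probe from 0.22 to 0.39 and its dimmer probe from 0.11 to 0.69. The sign turned in at least 1 of them for the dimmer *SPRY1* probe, *SPRED1*, *SPRED2* and both *ETV5* probes. No member probe passed an adjusted p of 0.05 under any of them, the lowest being 0.0706 for *DUSP1* (limma, Benjamini-Hochberg).

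**Figure D5:**
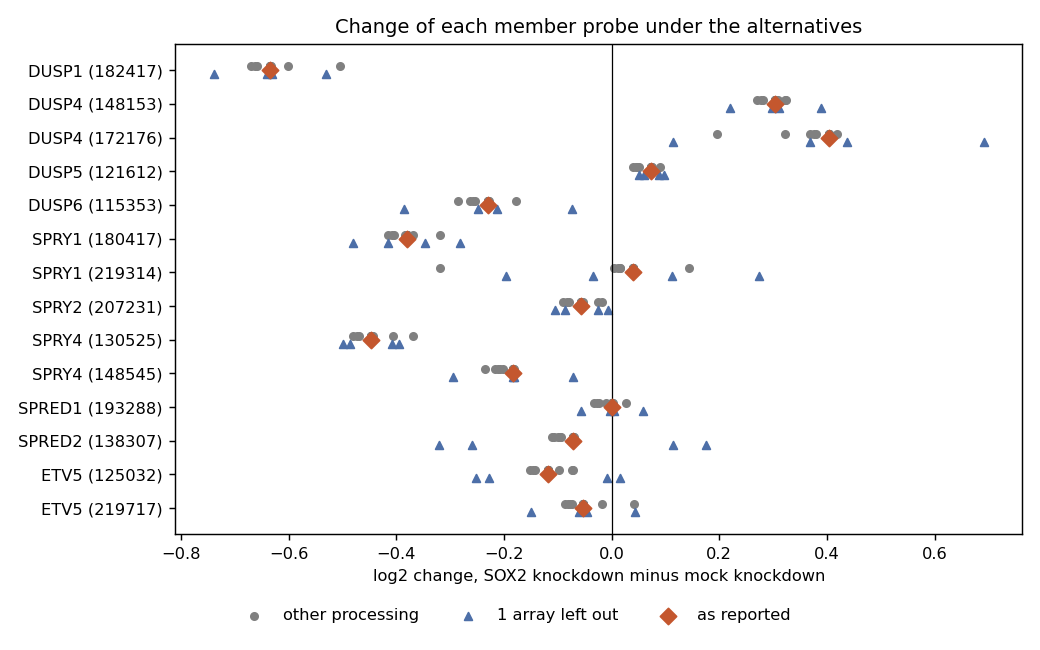
Log2 change of each member probe as reported (red diamonds), under other processing (grey circles) and with 1 array left out (blue triangles). *DUSP1* stayed between -0.74 and -0.50, while *SPRED1*, *SPRED2*, both *ETV5* probes and the dimmer *SPRY1* probe lay on both sides of 0.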

How the data were processed

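The deposited scanner files give linear intensity columns per probe: a normalized signal, already background-corrected within the array, the raw reading and, per the file headers, the S/N, used here as a score. The deposited series table holds a linear ratio per probe, which the authors scaled per array and centred per gene in GeneSpring, and served as an alternative. The scanner software's version was not given in the sources used here. Promoter windows and their coordinates are of RefSeq's GRCh38.p14, not of hg18, the build that the study's methods name.

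Control features and 210 probes with a flag of 5000 or more were left out. Each array was divided by its 75th percentile, floored at 0.01 and put on the log2 scale. A probe entered the comparison, singly, if 1 group or both had S/N above 3 in each replicate (21256 kept, 11630 dropped). Tests used limma 3.58.1 in R 4.3.3 (lmFit, eBayes, no block, Benjamini-Hochberg over all probes compared). On simulated arrays with independent noise the fit recovered the median size of planted changes. That check does not cover deviations shared between arrays, as these data have. The 2-fold cutoff compares linear replicate means, after the study's methods. Members and lists were chosen with earlier results of these data known. All member probes were named. From the other lists the probes over 2-fold with separated groups were named, or else the highest and lowest with S/N over 3 on all 4 arrays. *DUSP7* and the probes at an unadjusted p under 0.05 of the ERK-induced and cascade lists were added outside this rule, after their values were seen. List genes were matched through RefSeq symbols and synonyms. The files name no batch that holds over 1 array. Precision is limited by the number of arrays, 2 per group.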

Additional observations from a re-analysis of the deposited data

How the results depend on the processing

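The count of 0 member probes past 2-fold held under every alternative run except the 1.5-fold cutoff, which gave 1 (*DUSP1*), and the count of 0 at an adjusted p of 0.05 under every one (limma). Over all probes, the 555 past 2-fold became 1678 without an S/N filter, 302 with S/N required on all 4 arrays, 232 with normexp, 363 with a floor of 0.05, 2235 at 1.5-fold and 125 at 3-fold, and 683 to 935 with 1 array left out (935 without mock replicate 1). The 0 probes past an adjusted p of 0.05 became 826 with median scaling, 776 without further scaling, 758 with the series table, 287 with a variance trend and 5 where all 4 arrays had to pass S/N, and stayed 0 with 1 array left out, where the lone array is assumed to vary like the others. With median scaling, no further scaling and the series table, the adjusted p of the probes named here followed the size of the log2 change. Those values do not measure each probe's own replicate spread. The cause of these shifts was not tested.

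With the replicate number as a block limma called 0 of the 14 members and 0 of all probes. Across probes the deviations of same-numbered arrays correlated at -0.484, so the numbers were not taken as pairs. Mock replicate 1 thus tended to deviate like SOX2 knockdown replicate 2, and mock replicate 2 like SOX2 knockdown replicate 1. The replicate differences given above were therefore partly shared between the groups, and the source of this was not tested. A crossed pairing of these arrays as a block, chosen after the data were seen, also gave 0 and 0. With it limma's adjusted p for *DUSP1* was 0.0869.

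The sign turned for log2 changes near 0. With 1 array left out at a time, the dimmer *SPRY1* probe ranged from -0.20 to 0.27, *SPRED1* from -0.057 to 0.059, *SPRED2* from -0.32 to 0.18, *ETV5* probe 125032 from -0.25 to 0.016 and *ETV5* probe 219717 from -0.15 to 0.043. Outside the members, *DUSP12* ranged from -0.0091 to 0.61, *SPRY3* from -0.49 to 0.94, *SPRED3* from -0.31 to 0.24, *MAPK12* from -0.14 to 1.53 and *VIL1* from -0.32 to 0.085. *SPRED1* was -0.033 with median scaling, -0.026 without further scaling, -0.023 with the series table and -0.011 with normexp. The gene ID average gives 1 value for all probes of a gene ID, in which the brighter probe weighs more. It was -0.32 for *SPRY1*, opposite in sign to the dimmer probe taken singly, and 0.083 for *VIL1*. Normexp turned *ETV5* probe 219717 to 0.041 and *VIL1* to 0.10.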
